A study of Aspergillus oryzae with 20 samples.

Results

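The data described here are the transcriptome of the deletion control strain of Aspergillus oryzae, the koji mold, grown on wheat bran. They comprise the 5 libraries whose labels name the deletion control, of 20 libraries in the series. The background of the strain is RIB40 and its genotype is given as del-pyrG[pyrG+ ligD+], which marks pyrG and ligD as present. All 5 libraries share this genotype, the wheat bran solid medium, 30 °C and 72 h of incubation. The labels do not say whether the 5 came from separate flasks or how many transformant clones they represent, so the spread between them may be technical. Levels carry the name RPKM, read numbers divided by gene length and by a total of the library. That total does not match the reads mapped to these genes, because the values multiplied by reference gene length in kilobases summed to 6222649 to 7480943 per library, where 1000000 would be the most. Levels are therefore relative, comparable per length between genes of a library, and their absolute scale is not known. In such bulk samples, fewer cells of a kind and less RNA per cell cannot be told apart.

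On bran, A. oryzae grows as hyphae over and into a solid substrate, secretes amylases, cellulases, xylanases and proteases, and takes up the sugars, peptides and amino acids that these enzymes release. Aerial hyphae can form conidiophores and pigmented conidia, a program led by the transcription factor gene brlA. The marker pyrG encodes orotidine 5'-phosphate decarboxylase of pyrimidine synthesis, and ligD encodes a DNA ligase of non-homologous end joining.

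Each library listed 12074 genes, of which 714 (5.91%) had a symbol in the reference table. The RPKM sum per library was 4053109 to 4664311, and the depth in reads is unknown. The whole-read steps of low values gave the relative total by which each library was divided, 2.1, 1.25, 1.18, 1.00 and 1.06 in replicates 1 to 5. Multiplied by the length-weighted sums, these correspond to 2.15, 1.26, 1.13, 1.00 and 1.21 times the reads in genes of the shallowest library, an estimate that rests on reference gene lengths. Compared directly, replicates 1 and 2 were ambiguous, since 17 genes gave a ratio a factor of 2 away from the one used and 14 gave the one used, which follows from the ratios of both to replicate 3. The same steps split the libraries into a set of replicates 2, 3 and 4 and a set of replicates 1 and 5, and the sources used here do not say why. Replicate 5 stood apart from the others. Across the 12074 genes, its log2 values correlated at 0.851 to 0.882 with the other libraries, which correlated among themselves at 0.916 to 0.934. The genes are not independent replicates and share a library's depth. On the first principal component (46.2% of the variance) replicate 5 scored 130, and the others scored between -50.9 and -9.56. Results are therefore also given without replicate 5 where it moved them. The marker pyrG was present in every library, at 49.8, 45.5, 48.1, 36.3 and 6.83 RPKM in replicates 1 to 5. Its level in replicate 5 lay well below the other 4 values.

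A few genes held a large part of the messenger RNA. The 20 genes of highest mean level held 20.04% ± 4.62 (SD, n = 5) of the RPKM sum, with 21.8%, 17.5%, 15.5%, 18.1% and 27.2% in replicates 1 to 5. The 100 most abundant held 39.3% ± 2.36 and the 1000 most abundant 78.5% ± 0.840. Between 117 genes, in replicate 5, and 192 genes, in replicate 3, made up 50% of a library's sum. Which genes stood at the top differed between libraries. Only 6 genes were among the 20 most abundant in each of the 5 libraries, and 42 were in at least 1. For the 100 most abundant the counts were 38 and 191.

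**Figure D1:**
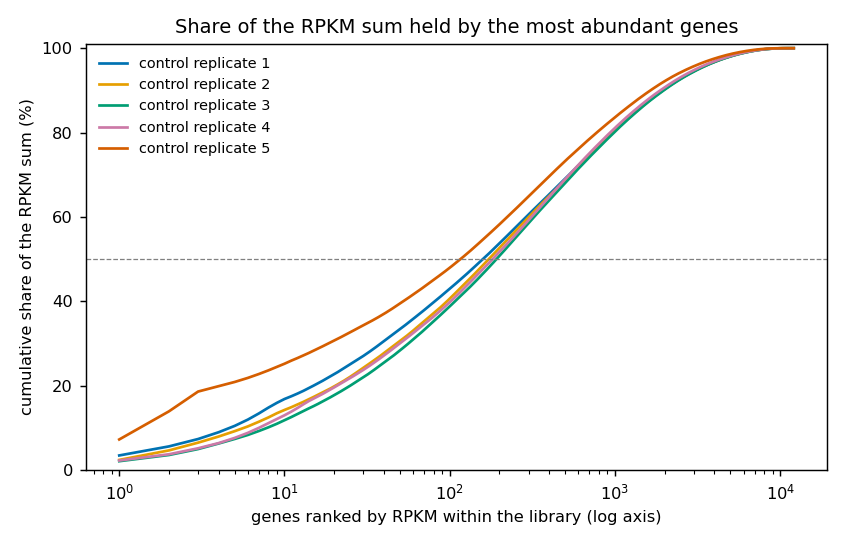
Cumulative share of the RPKM sum (%, vertical axis) against the number of genes, ranked by RPKM within each library (log axis), with a line for each control replicate. The line of replicate 5 runs above the other 4 and reaches 50% (dashed line) at 117 genes, against 159 to 192 genes in the others.

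The 2 genes of highest mean level, AO090120000196 and AO090023000944, owed that place to replicate 5. The reference table gives neither a symbol. AO090120000196 was at 20009, 102597, 11787, 25418 and 338790 RPKM in replicates 1 to 5. AO090023000944 was at 17865, 95387, 10784, 23620 and 311041 RPKM. Both were highest in replicate 5, next in replicate 2 and lowest in replicate 3, with the highest value 28.7 and 28.8 times the lowest. The ratio of the first to the second stayed between 1.08 and 1.12 in the 5 libraries. Their reference gene models have the same length, 2044 bases, and the sources used here do not say how reads that match more than 1 gene were divided, so the split between this pair is uncertain. Together they held 13.9% of the RPKM sum in replicate 5, 4.67% in replicate 2 and between 0.557% and 1.16% in the other 3. Without replicate 5 their means were 39953 ± 42137 and 36914 ± 39334 RPKM (SD, n = 4), at ranks 8 and 10.

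Without replicate 5 the most abundant gene was AO090005001622, at 93431, 77914, 85642, 96020 and 44652 RPKM in replicates 1 to 5. It was high in all libraries, and its mean over replicates 1 to 4 was 88252 ± 8182 RPKM (SD, n = 4). AO090120000080 had the same shape, at 60348, 47254, 53567, 50454 and 23558 RPKM. The reverse held for AO090026000175, a short gene of 380 bases, at 64495, 42306, 57026, 46887 and 218541 RPKM, where replicate 5 lay far above the rest. AO090026000254 was highest in replicate 1, at 151252 RPKM, and stood between 37940 and 61849 in the others. Of the 20 most abundant genes, 18 were still among the 20 when replicate 5 was left out, 9 were lowest in replicate 5 and 4 were highest there. Over the 10484 genes with a mean of at least 1 RPKM, 38.8% were lowest in replicate 5 and 25.7% highest, so these counts are near the background.

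Some abundant genes were abundant in only part of the libraries. AO090003000005 was at 70372, 483, 503, 332 and 43103 RPKM in replicates 1 to 5, so that its high values fell in the 2 libraries of the same step set. AO090005000818 was at 76091, 5993, 9111, 2127 and 1250 RPKM, and replicate 1 alone raised its mean to 18914 ± 32117 (SD, n = 5). AO090001000412 was between 25387 and 63833 RPKM in 4 libraries and at 4775 in replicate 3. AO090001000447, AO090003001036 and the adjacent genes AO090005000386 and AO090005000387 had a common order, high in replicates 3 and 4, lower in replicate 2 and lowest in replicate 5. AO090005000387, for example, was at 27529, 10119, 43574, 50093 and 4608 RPKM, and its ratio to AO090005000386 stayed between 0.984 and 1.36.

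**Figure D2:**
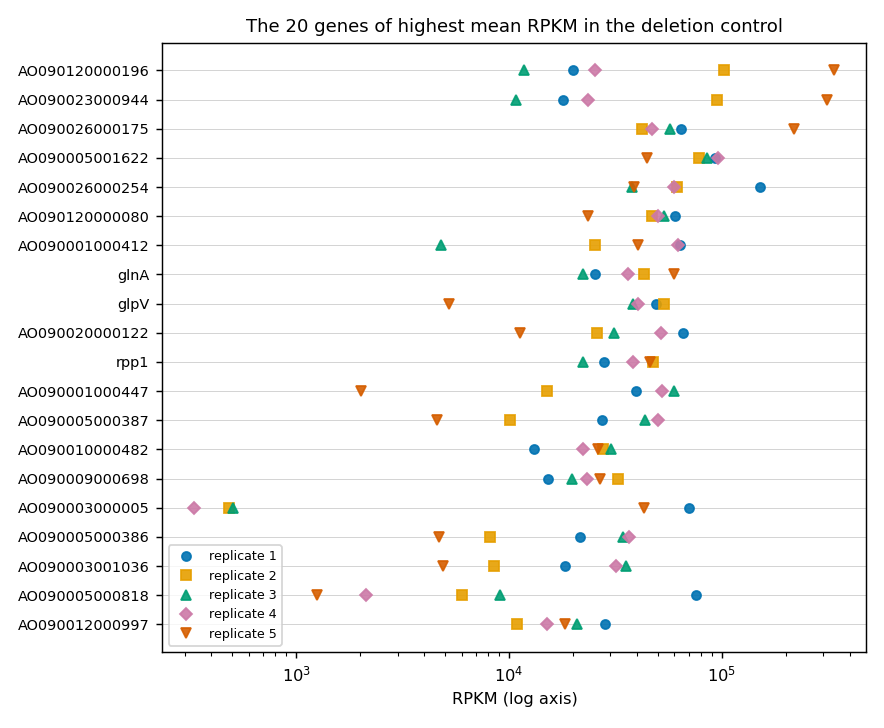
RPKM (log axis) of the 20 genes of highest mean level in each of the 5 control libraries, ordered by mean from top to bottom; each symbol is 1 library. Replicate 5 is the highest library for the upper 3 genes and the lowest for 9 of the 20, and AO090003000005 is high only in replicates 1 and 5.

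Among genes with a symbol, the highest levels were those of glnA, glpV, rpp1, hhtA, ugp1, fleA, wos2 and sod1. The glutamine synthetase gene glnA, which assimilates ammonium, was at 25388, 43328, 22241, 36114 and 60005 RPKM, with its highest value in replicate 5. The glycogen phosphorylase gene glpV was at 49047, 53766, 38375, 40399 and 5232 RPKM. Replicates 1 to 4 were close together and replicate 5 lay far below, the highest value being 10.3 times the lowest. The gene rpp1 was at 36501 ± 11054 RPKM (SD, n = 5), the histone H3 gene hhtA at 18057 ± 3779 and the UDP-glucose synthesis gene ugp1 at 17844 ± 8087. The copper and zinc superoxide dismutase gene sod1 was at 16488 to 20281 RPKM in replicates 1 to 4 and at 5925 in replicate 5. The fucose-binding lectin gene fleA followed it, at 21674, 16733, 28487, 20669 and 1170 RPKM. In both, replicate 5 was far below a narrow group of 4.

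The small GTPase gene rho1, which activates cell wall glucan synthesis, was the steadiest of the 20 most abundant genes with a symbol, at 11518 ± 1026 RPKM (SD, n = 5). The chitin precursor gene gfa1 was not steady, at 8295, 20287, 2698, 7197 and 17207 RPKM, with replicates 2 and 5 high. The transketolase gene tktA was at 7681 ± 4247 RPKM, the formate dehydrogenase gene fdh at 5803 ± 2675 and the glycolytic glyceraldehyde-3-phosphate dehydrogenase gene gpdA at 5582 ± 1727. All 3 were lowest in replicate 5, where they stood at 2495, 1262 and 2704 RPKM. The cytochrome oxidase subunit gene cox5b was highest there instead, at 7796 RPKM against 4172 to 6351. Of the 20 most abundant genes with a symbol, 11 were lowest in replicate 5, against 29.4% of the 700 genes with a symbol and a mean of at least 1 RPKM. Symbols were few at the top: 3 of the 20 and 16 of the 100 most abundant genes had one.

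Most listed genes were detected in every library. Above 1 RPKM in all 5 libraries were 9318 genes (77.2% of 12074), above 10 RPKM 6611 (54.8%), above 100 RPKM 2211 (18.3%) and above 1000 RPKM 336 (2.78%). The counts hold for the deposited scale: with each library rescaled to a common sum of 1000000, they were 7911, 3538, 725 and 66. On the deposited scale these sets held 99.2%, 97.2%, 85.0% and 53.8% of the RPKM sum on average. The number above a level was much the same in each library taken alone, between 9840 and 10322 at 1 RPKM and between 697 and 731 at 1000 RPKM. Which genes passed differed more as the level rose. Above 1 RPKM in at least 1 library were 10900 genes, of which 14.5% were not above it in all 5, while above 1000 RPKM in at least 1 library were 1234 genes, of which 72.8% were not. Replicate 5 alone kept 375, 527, 353 and 111 genes out of the 4 sets.

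**Figure D3:**
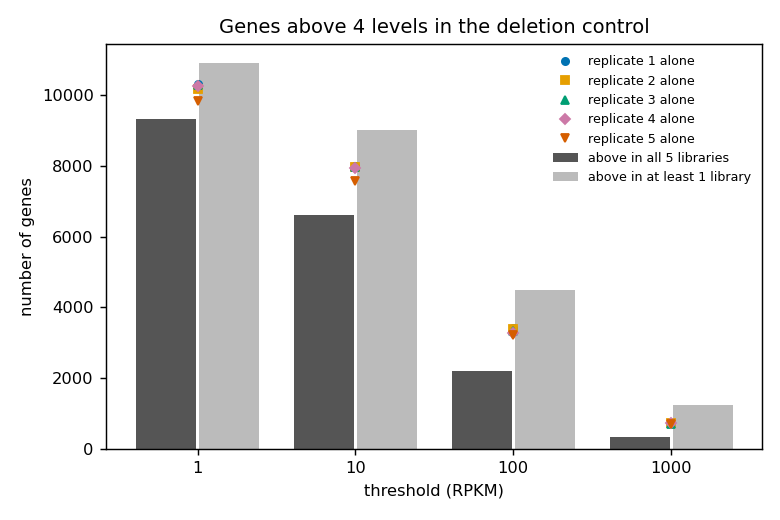
Number of genes (vertical axis) above 1, 10, 100 and 1000 RPKM in all 5 control libraries (dark bars) and in at least 1 (light bars), on the deposited scale, with symbols for each library alone. The libraries nearly coincide within each level, while the bars part from 9318 against 10900 genes at 1 RPKM to 336 against 1234 at 1000 RPKM; with libraries rescaled to a sum of 1000000 the dark bars would stand at 7911, 3538, 725 and 66.

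At the other end, 356 genes were listed at 0 in all 5 libraries and 1635 in at least 1. The only gene with a symbol among the 356 was tpcG. Zeros numbered 655 in replicate 1, which had the greatest estimated depth, and 858 to 1169 in the others. Of the 1635, 15 genes were listed at 0 in replicate 5 and were above 10 RPKM in each other library. The same count for replicates 1 to 4 was 0, 2, 1 and 2. In 17 genes replicate 5 was above 10 RPKM and each other library below 1. The largest of the latter was AO090010000698, at 1146 RPKM in replicate 5 and listed at 0 in the others. Replicate 1 had 24 such genes of its own.

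The 21 gene lists hold 289 genes with a symbol. The median mean of all genes with a symbol was 126 RPKM, against 31.1 over all listed genes, and 41.9% of them, against 18.3% of all genes, were above 100 RPKM in all 5 libraries. The shares in translation and in the proteasome list were larger. In translation, 13 of 13 members were above 100 RPKM in all 5 libraries, with a median mean of 1625 RPKM. Of the proteasome and ubiquitin genes, 18 of 19 were, with a median of 676. The exception, ubaA, was at 62.3 RPKM in replicate 5 and at 1145 in replicate 3. The proteasome subunit gene pre1 was at 2996 ± 420 RPKM (SD, n = 5) and the ribosomal protein gene rpl17 at 3773 ± 586.

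Central carbon metabolism had 9 of 11 members above 100 RPKM in all 5, among them gpdA and tktA and the enolase gene aspf22, at 4552 ± 1655 RPKM (SD, n = 5). The gluconeogenic gene fbp1 was the lowest of that list, at 38.7 ± 7.58. Oxidative stress and chaperone genes had 16 of 19 above 100, led by the co-chaperone gene wos2 at 16321 ± 5982. The catalase gene cat1 was at 2576, 5335, 4165, 5374 and 10020 RPKM, with replicate 5 highest, whereas catA, a catalase gene of conidia in A. nidulans, was at 8.08 RPKM there and between 24.1 and 70.7 in the others. Vesicle traffic had 8 of 10 members above 100, and the actin and polarity list had 6 of 6. In that list the actin gene act1 was at 2600 ± 336 RPKM and the profilin gene pfy1 ranged from 179, in replicate 5, to 4223, in replicate 3.

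Genes for the breakdown of bran polymers that carry a symbol had a median mean of 72.8 RPKM. Of 19 members of plant polysaccharide degradation, 13 were above 10 RPKM in all 5 libraries, against 54.8% of all genes and 85.2% of those with a symbol, and 2 were above 100. Of these 2, the cellobiohydrolase gene cbhC was at 1435, 1677, 6294, 8609 and 5700 RPKM, high in replicates 3, 4 and 5. The other, the rhamnogalacturonate lyase gene rglA, was at 501 ± 424 RPKM (SD, n = 5), with 1218 in replicate 5. The mannanase gene manF and the pectin methylesterase gene pmeA were both lowest in replicate 2, at 12.4 and 11.0 RPKM, and highest in replicate 4, at 386 and 207. The activator gene xlnR, which drives xylanase and cellulase genes, varied little, at 66.4 ± 14.1 RPKM, while xlnD, a xylosidase gene and its target in A. niger, was at 39.1, 130, 23.0, 77.4 and 109 RPKM. Whole classes of secreted enzymes have no symbol in the table, so these counts do not describe the fungus's secretome.

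Of the 7 peptidase genes with a symbol, 1 was above 100 RPKM in all 5, the leucine aminopeptidase gene lap1 at 285 ± 30.4 RPKM (SD, n = 5). The ADAM-family gene admA was at 0.25, 0.10, 0, 0.13 and 14.2 RPKM, so that its mean rested on replicate 5. In starch, glycogen and trehalose, 3 of 5 members were above 100, glpV, ugp1 and the phosphoglucomutase gene pgmA. The glucosidase gene agdC was at 1106, 1131, 1593, 925 and 93.7 RPKM, again with replicate 5 far below the others. Of the 6 genes of nitrogen assimilation and peptide uptake, glnA alone was above 100 in all 5. Of all genes with a symbol, 41.9% were. The nitrite reductase gene niiA was at 53.6, 216, 3.29, 189 and 11.0 RPKM, high in replicates 2 and 4.

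Of 15 conidiation genes, 5 were above 100 RPKM in all 5 libraries, against 41.9% of all genes with a symbol. An SD of log2(RPKM + 1) over 1 was found in 4 of the 15. Among genes with a mean of at least 1 RPKM that share was 25.5%, and 18.4% among those with a symbol. The developmental regulators flbB, at 1579 ± 294 RPKM (SD, n = 5), and medA, at 317 ± 30.1, were steady. The central regulator brlA was at 46.7, 3.69, 14.5, 3.19 and 1.60 RPKM, highest in replicate 1, and the spore maturation gene wetA at 12.8 ± 0.825. The pigment polyketide synthase gene pksP was between 2.76 and 5.67 RPKM in all libraries. A further gene of the pigment pathway, ayg1, was at 1.95, 2.24, 87.1, 1.25 and 738 RPKM, with replicates 5 and 3 apart from the other 3. In replicate 5 the high ayg1 value thus stood beside the lowest pksP and brlA values of the 5 libraries.

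Secondary metabolism had 2 of 24 members above 100 RPKM in all 5, ftmC at 327 ± 165 RPKM (SD, n = 5) and fgaCat at 412 ± 90.7, and its median mean was 5.51 RPKM. The polyketide synthase gene fma-PKS was between 150 and 307 RPKM in 4 libraries and at 9.64 in replicate 2. In iron and siderophores 2 of 14 were above 100, and the siderophore transporter gene sit1 was at 11209, 186, 1695, 286 and 939 RPKM, highest in replicate 1. Cell wall genes lay between these extremes. Chitin synthesis and degradation had 5 of 13 members above 100 and glucan synthesis and remodelling 9 of 17, for example chsG at 1114 ± 279 and ecm33 at 1222 ± 153 RPKM. Ergosterol synthesis had 4 of 17, ribosome biogenesis 5 of 25, mitochondria and respiration 8 of 17, peroxisome 6 of 13, autophagy 2 of 5, and histones and chromatin 6 of 15. Of all genes with a symbol 41.9% were above 100 RPKM in all 5 libraries, and of all genes 18.3%. The shares in the chitin, mitochondria, peroxisome, autophagy and histone lists, 38.5% to 47.1%, were near that of genes with a symbol.

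The spread between the 5 libraries varied from gene to gene, and a minority of genes differed by orders of magnitude. Spread was measured as the SD of log2(RPKM + 1) over the 5 libraries, in the 10484 genes with a mean of at least 1 RPKM, and its median was 0.57. An SD over 1 was found in 2670 genes (25.5%), over 2 in 748 (7.13%) and over 3 in 190. Without replicate 5 an SD over 1 was found in 1796 genes and over 2 in 556, of which 1692 and 480 were among the former. Over all 5 libraries, the shares with an SD over 1 and over 2 among the 700 genes with a symbol were 18.4% and 3.29%. Genes of large spread were found at all levels. The share with an SD over 1 was 21.0% at a mean of 1 to 10 RPKM, 22.0% at 10 to 100, 32.5% at 100 to 1000, 32.9% above 1000 apart from the 57 highest genes, and 35.1% in those 57. For an SD over 2 it was 1.28% (28 genes) at 1 to 10 RPKM and 14.0% in the 57. The pseudocount of 1 narrows the spread of low values, and a single high library raises a gene's mean. The rise with level is therefore partly built into the measure.

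**Figure D4:**
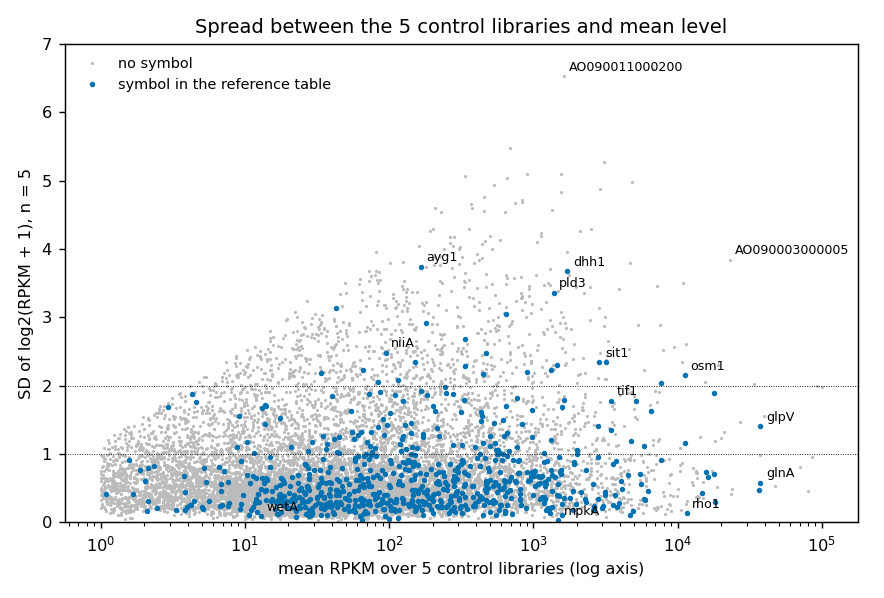
SD of log2(RPKM + 1) over the 5 control libraries (vertical axis) against mean RPKM (log axis) for the 10484 genes with a mean of at least 1 RPKM; genes with a symbol are drawn larger. The dotted lines mark an SD of 1, exceeded by 2670 genes, and an SD of 2, exceeded by 748, and genes of large spread occur up to the highest means.

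Of the 748 genes with an SD over 2, replicate 5 was the lowest library in 309 and each other replicate in 82 to 130. The share of replicate 5 lay near the background, since 38.8% of all 10484 genes were lowest there. The highest library was spread more evenly, at 117 to 163 genes each. The step sets gave no larger share among the variable genes than among all. Both replicates 1 and 5 were above replicates 2, 3 and 4 in 67 of the 748 genes (8.96%), against 10.0% of the 10484, and below them in 61 (8.16%), against 14.2%.

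The 15 genes of largest spread had an SD of 4.68 to 6.64 and, in each, a lowest value that was listed at 0 or that the highest exceeded over 100 times. None has a symbol. The next gene in that order had an SD of 4.67. Their means ran from 334 to 6715 RPKM, which the choice by spread favours, and their medians from 0 in AO090011000200 to 2612 in AO090701000861. AO090023000612 was at 5525, 1.94, 2.19, 1.85 and 28046 RPKM in replicates 1 to 5, and AO090011000200 at 2710, 0, 0, 0 and 5364. These 2, with AO090012000236 and AO090012000517, were high in replicates 1 and 5 and low in the other 3.

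Other groupings of libraries occurred among the 15. AO090010000323 was at 728, 0.529, 0.743, 2691 and 0.138 RPKM, high in replicates 1 and 4. AO090010000585 was at 801, 0.275, 867, 0.685 and 0.215 RPKM, high in replicates 1 and 3, as was AO090102000269. AO090038000189 was high in replicates 1, 3 and 4, at 685, 1167 and 1396 RPKM, and at 0.52 and 1.12 in replicates 2 and 5. AO090005000634 was high in replicates 3 and 5, at 1501 and 2615 RPKM, and at most 7.11 in the others. In AO090023000266 and AO090001000323 replicate 1 alone was high, at 2652 and 2263 RPKM. AO090005000533 was the reverse, listed at 0 in replicate 2 and between 603 and 7091 RPKM in the others. AO090020000588 was high in replicates 2 and 1, at 5240 and 2236 RPKM, and at 0.399 in replicate 5. The highest library was replicate 1 in 3 of the 15 genes, replicate 2 in 1, replicate 3 in 4, replicate 4 in 3 and replicate 5 in 4. Without replicate 5, 13 of the 15 were still among the 100 most variable genes.

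The 20 genes of largest spread among those with a symbol had an SD of 2.15 to 3.74. The RNA helicase gene dhh1, whose yeast counterpart acts in messenger RNA decay, was at 205, 4312, 29.0, 4018 and 22.0 RPKM, high in replicates 2 and 4. The helicase genes dbp3 and dbp9, of ribosome assembly in yeast, differed in pattern. The former was high in replicates 1 and 4, at 1792 and 1305 RPKM, and at most 51.6 in the others. The latter was high in replicates 1 and 3, at 858 and 1328 RPKM, and at most 69.3 in the others. The transfer RNA modification genes trm6 and dus3 ranged from 5.39 to 426 and from 6.28 to 917 RPKM, with trm6 low in replicates 2 and 4 and dus3 low in replicate 1. The purine synthesis gene ade13 was at 2843, 332, 8300, 207 and 4159 RPKM, low in the same 2 libraries as trm6.

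In pld3 replicate 1 alone was high, at 6768 RPKM against 29.4 to 40.9. Without replicate 1 its SD fell from 3.36 to 0.21. The stress kinase gene mpkC was the reverse, at 18.6 RPKM in replicate 1 and between 382 and 769 in the others, and its SD without replicate 1 was 0.51. The calcineurin subunit gene cnaB was at 4303, 200, 179, 155 and 1812 RPKM, and osm1 at 26774, 1472, 1749, 1882 and 24471. In both, replicates 1 and 5 lay above the other 3. The mitochondrial import receptor gene tom70 was highest in replicate 5, at 4157 RPKM, and lowest in replicate 4, at 111. The chitinase gene chiA1 was high in replicate 2 alone, at 275 RPKM against 3.39 to 22.3. The oligopeptide transporter gene optB was low in replicate 5 alone, at 0.531 RPKM against 21.6 to 69.7, and its SD without replicate 5 was 0.73. For hmgX, high in replicate 5 at 656 RPKM, that SD was 0.93. The other 18 of the 20 kept an SD over 1 without replicate 5.

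**Figure D5:**
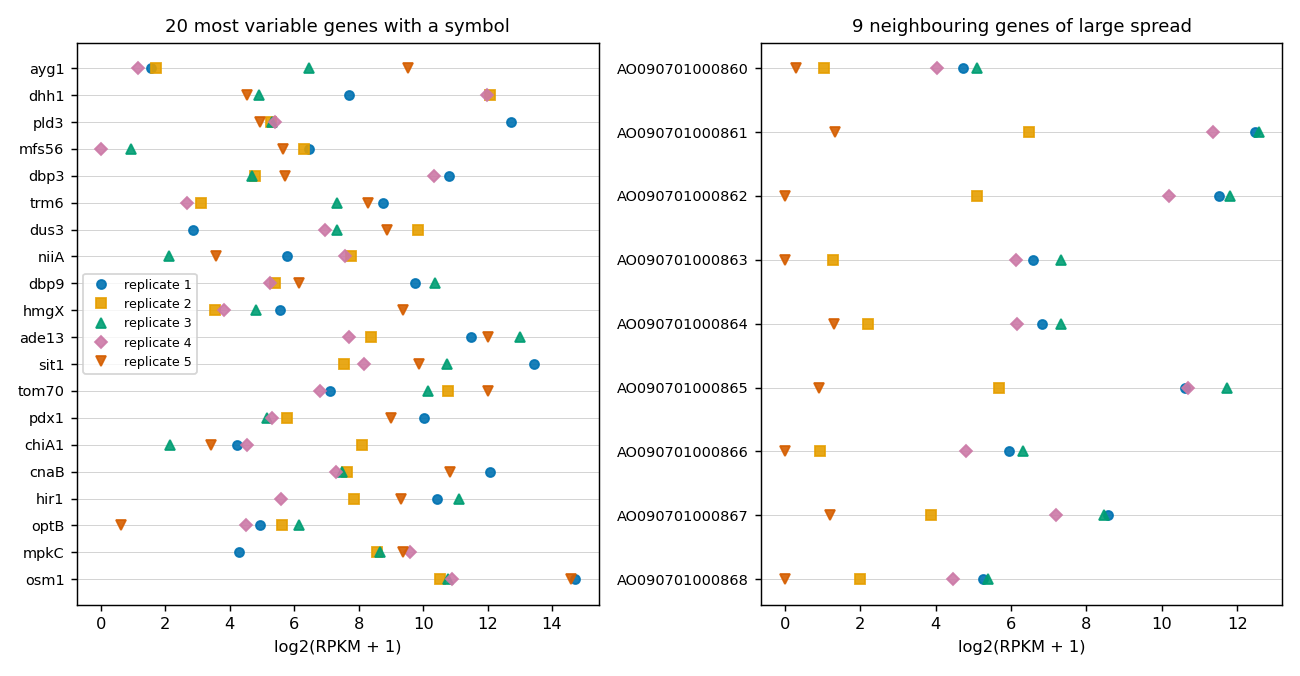
Log2(RPKM + 1) in each control library for the 20 genes with a symbol of largest spread (left) and for 9 neighbouring genes of large spread (right); each symbol is 1 library. On the left the extreme library differs from gene to gene, and on the right all 9 genes are lowest in replicate 5 and next lowest in replicate 2.

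Some genes of large spread were next to each other in the order of the reference annotation. Of the 748, 156 (20.9%) had such a gene as a direct neighbour, and 11.5% of their neighbour places held one, against 6.20% of all 12074 genes. There were 9 runs of 3 or more, with 34 genes, none with a symbol. In 6 of these runs every gene was lowest in replicate 5. Replicate 5 was the lowest library in 309 of the 748 genes and in 38.8% of genes with a mean of at least 1 RPKM. Genes within a run are not independent of each other. The longest run held 9 genes from AO090701000860 to AO090701000868, with a median level of 111, 3.60, 160, 70.7 and 0.225 RPKM in replicates 1 to 5. Its most abundant gene, AO090701000861, was at 5632, 87.9, 6082, 2612 and 1.53 RPKM. All 9 genes were thus high in replicates 1, 3 and 4, low in replicate 2 and at or below 1.53 RPKM in replicate 5. The run AO090012000895 to AO090012000897 went the other way, with medians of 0.207, 6.61, 0.368, 1.16 and 46.8 RPKM.

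The place of replicate 5 differed between gene lists. Of the 700 genes with a symbol and a mean of at least 1 RPKM, 29.4% were lowest in replicate 5 and 29.6% highest there. Ribosome biogenesis had 16 of 25 members highest in replicate 5 and 0 lowest, for example cbf5 at 1132, 669, 1359, 961 and 2168 RPKM and nop58 at 206, 228, 139, 320 and 671. The summed level of the list did not follow this count. It was 0.131%, 0.0556%, 0.102%, 0.0919% and 0.114% of the RPKM sum in replicates 1 to 5, so replicate 5 lay within the range of the others. The list includes dbp3 and dbp9, whose large spread weighs on this sum. The former was at 1792 and 1305 RPKM in replicates 1 and 4 and at 51.6 in replicate 5. The latter was at 858 and 1328 RPKM in replicates 1 and 3 and at 69.3 in replicate 5. The sum was not taken without them, so it does not describe the other members. In ergosterol synthesis 10 of 17 were highest in replicate 5, with the squalene synthase gene erg9 at 749, 571, 150, 257 and 1383 RPKM, and 4 were lowest, with the isomerase gene idi1 at 521 RPKM against 1644 to 2748. The summed share of ergosterol synthesis in replicate 5, 0.129%, lay within the 0.114% to 0.140% of the others. Mitochondria and respiration had 9 of 17 highest and 1 lowest. Translation, in contrast, had 1 of 13 highest and 0 lowest. That 1 was the initiation factor gene tif1, at 1119, 997, 733, 768 and 13646 RPKM.

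Lowest in replicate 5 were 4 of 5 genes of starch, glycogen and trehalose, 6 of 11 of central carbon metabolism, 10 of 19 of the proteasome and ubiquitin list, 7 of 13 of the peroxisome, 8 of 15 of conidiation and 4 of 5 of autophagy. Among genes with a mean of at least 1 RPKM, 29.4% of those with a symbol and 38.8% of all were lowest there. These lists are named because their counts were high. The genes of starch, glycogen and trehalose together held 1.73%, 1.97%, 1.44%, 1.26% and 0.313% of the RPKM sum in replicates 1 to 5, and those of central carbon metabolism 0.764%, 0.928%, 0.684%, 0.609% and 0.295%. In both sums replicate 5 lay below the range of the other 4, though glpV and ugp1 made up most of the first. Their means were 0.882% and 0.418% of the RPKM sum, against 1.34% for the whole list. Replicate 5 was also below the range of the others for autophagy, at 0.0110% against 0.0138% to 0.0181%, and for the proteasome list, at 0.387% against 0.460% to 0.509%. The peroxisome genes, in contrast, had their highest sum in replicate 5, 0.133% against 0.0675% to 0.110%. Their most abundant gene, pex14, weighed heavily in it, with a mean of 0.0368% against 0.0920% for the list. It was at 519, 837, 183, 2954 and 3622 RPKM in replicates 1 to 5. The sum was not taken without pex14, so it does not describe the other members. The conidiation genes were within range, at 0.164% against 0.153% to 0.234%. In the proteasome list the low values were mostly close to the rest, as in rpnL at 125 RPKM against 151 to 170. The estimated reads in genes of replicate 5 were 1.21 times those of replicate 4, and its 2 most abundant genes took 13.9% of its sum. What part these had in the list values was not tested.

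Some regulators and core genes hardly differed between libraries. Among genes with a symbol and a mean of at least 100 RPKM, the 10 of smallest spread had an SD of 0.03 to 0.13. The kinase gene mpkA of cell wall integrity signalling was at 1486 ± 32.5 RPKM (SD, n = 5). The gene skpA, for a subunit of ubiquitin ligases, was at 4647 ± 328, the regulator gene cpcA of amino acid synthesis at 1300 ± 114, and the proteasome gene pre9 at 552 ± 41.7. The kinase gene ste7 was at 100, 106, 95.9, 98.2 and 99.8 RPKM. Replicate 5 lay within the range of the other libraries in 4 of these 5 genes, and in mpkA it was the highest, at 1535 RPKM.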

How the data were processed

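Messenger RNA was sequenced from 5 libraries of the deletion control strain. Per the file headers, the deposited values are RPKM per gene, made by the authors; the total they were divided by is not stated. The submitters' processing notes name TopHat2 2.0.9 and Cufflinks 2.1.1, beside CASAVA 1.8.2 and FastQC 0.10.1. What each did, with which parameters, genome build or annotation, is not given in the sources. As RPKM are not counts, no count model was used, and with 1 group no test was made.

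All 12074 identifiers matched locus tags of a RefSeq table of assembly ASM18445v3, which was used for symbols, gene lengths and gene order only. No coordinates are given. The table pairs no identifier with ligD, which was not analysed here. Shares are of the summed RPKM. Spread is the SD of log2(RPKM + 1), a pseudocount of 1, in genes with a mean of at least 1 RPKM. Whole-read steps of genes averaging under 1.5 RPKM gave, as clustered ratios between 2 libraries, the ratio of the totals that the values were divided by. Multiplied by the length-weighted sum of each library, an estimate added after seeing the data, this gave relative reads in genes. Within a step set 89.0% to 96.2% of ratios near the cluster lay within 0.00015 natural log units of it, between sets 18.0% to 25.0%. The depth in reads is unknown, so no counting intervals are given. The calculations used Python 3.11.15, numpy 2.4.6, pandas 2.3.3 and scipy 1.17.1, and were tested on simulated data.

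The genes named are the 20 of highest mean, the 20 of highest mean with a symbol, the 15 of largest spread, the 20 of largest spread with a symbol, the steadiest 10 with a symbol and a mean of at least 100 RPKM, members of the lists by level and spread, pyrG and admA. Other genes (brlA, wetA, pksP, medA, fbp1, xlnD, xlnR, pmeA, pgmA, nop58, rpnL, AO090010000698 and the neighbouring runs) were chosen after their values were seen. The 5 libraries, the lists and the rules were chosen with earlier results of these data known, and the lists were corrected after symbols and some levels had been seen. Alternatives varied the libraries, the scaling, the pseudocount and the filter.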

Additional observations from a re-analysis of the deposited data

Results flagged for a closer look

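A value was singled out where, among the 5 libraries, the gap between the highest or lowest and its nearest neighbour was large against the whole range. For genes the gap and the range were taken on log2(RPKM + 1), while the values printed below are RPKM. Chance singles out about 1 in 20 groups of 5 in this way. Of the 134 named genes 21 were singled out, 14 of them by replicate 5. Over the 10484 genes with a mean of at least 1 RPKM it was 1291 (12.3%), and replicate 5 was the low library in 602 of these and the high one in 278. The other replicates were low in 23 to 46 genes and high in 44 to 112.

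Replicate 5 was low in AO090005001622 (44652 RPKM), AO090120000080 (23558), glpV (5232), sod1 (5925), fleA (1170), fdh (1262), gpdA (2704), aspf22 (1841), agdC (93.7), aglA (4.06), an α-galactosidase gene, and pyrG (6.83). It was high in AO090026000175 (218541 RPKM), tif1 (13646) and admA (14.2). It also had fewer genes above 10 RPKM (7558) and the highest single value of the 5 libraries (338790 RPKM). Replicate 1 was high in AO090023000266 (2652 RPKM) and pld3 (6768), low in mpkC (18.6), and the relative total from its read steps, 2.1, was above the others. Replicate 2 was low in AO090005000533 (0 RPKM) and fma-PKS (9.64) and high in capA (194). Replicate 3 was high in ubaA (1145 RPKM). What lies behind these values was not tested.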

How the results depend on the processing

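The share of the 20 most abundant genes was 18.4% to 21.2% with any 1 library left out, and 50% of the sum took 158 to 176.5 genes. Leaving out each library gave 9363 to 9693 genes above 1 RPKM, 6677 to 7138 above 10, 2268 to 2564 above 100 and 349 to 447 above 1000. Counts at an SD over 1 were 1796 (without replicate 5) to 2846, and over 2, 556 (without replicate 5) to 839. Of the 100 most variable genes 74 to 83 stayed among the 100. List members above 10, 100 and 1000 RPKM numbered 239 to 245, 131 to 137 and 36 to 41. Rescaling each library to the common sum that TPM have, a change of unit, left 3538, 725 and 66 genes above 10, 100 and 1000. Asking for at least 4 libraries gave 511 genes above 1000. Within replicates 2, 3 and 4, a step set and an alternative added after seeing the data, 1646 genes had an SD over 1. A pseudocount of 5 gave 483 genes with an SD over 2, and with a pseudocount of 0.1 or the coefficient of variation 65 and 32 of the 100 most variable genes stayed; the cause was not tested. Weighting by protein length was not run, and weighting by reference gene length gave 20.4% and 168 genes. No paired analysis was possible because 1 group is described. Unknown depth limits what can be said of genes near 0.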
